A study of Mus musculus with 12 samples.

Results

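The classical MHC class I presentation genes are a set of 10 listed genes: the heavy chain genes H2-K1 and H2-D1, the light chain gene B2m, the peptide transporter and loading genes Tap1, Tap2 and Tapbp, the immunoproteasome subunit genes Psmb8, Psmb9 and Psmb10, and the transactivator gene Nlrc5. They are listed by name, for their role and not by a threshold on measured values, though with earlier results of these data known. All 10 were found by symbol among the 55335 gene identifiers of the deposited tables. H2-L, a further heavy chain gene of some mouse strains, was not analysed here.

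MHC class I molecules show peptides from inside the cell to CD8 T cells. The proteasome cuts proteins into peptides, the TAP transporter carries these into the endoplasmic reticulum, tapasin holds the empty heavy chain beside the transporter, and a loaded heavy chain travels to the cell surface bound to beta-2 microglobulin. Interferon gamma raises most of these genes through IRF1, and NLRC5 is drawn to their promoters by proteins bound at conserved elements, the X and Y boxes among them. Tumor cells that lower these genes can escape T cells.

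RNA-seq was done on 12 libraries in 4 groups of 3, all from CT26, a mouse colorectal cancer line with wild-type genotype per the cell labels. CT26 cells in culture received DMSO or 1 µM midostaurin, a multikinase inhibitor, for 48 h. Subcutaneous CT26 tumors received vehicle or 40 mg/kg midostaurin, begun on day 7 after inoculation and kept up for 2 weeks. The host mouse strain, age and sex and the pooling of animals are not given in the sources used here, and a single line stands for the tumor type. Separate cultures or animals are not stated for the 3 samples of a group, so the p-values reflect variation among these samples only, and that may be technical.

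Cell libraries held 34787389 to 38144039 counts and tumor libraries 33399701 to 48109497. The epithelial markers Epcam and Krt19 were at 0 in all 6 cell libraries, while Krt18 lay between 22.7 and 29.6 scaled CPM, CPM being counts relative to the library total, here after TMM scaling. T cell markers summed to at most 0.171 scaled CPM in any cell library, with 6 to 8 of the 8 genes at 0. The cell libraries numbered 1, control and midostaurin alike, stood apart from the others. The mean squared count difference, relative to sampling noise, was 207 to 217 between them and the other numbers. Between numbers 2 and 3 it was 15.9 to 16.7. Deviations of number 1 from its group mean correlated at -0.861 to -0.835 with those of numbers 2 and 3 under the other treatment, across 10413 genes. Centring on means of 3 libraries itself pushes such correlations down. The columns number the midostaurin tumors 2 to 4, and the column numbered 4, called midostaurin tumor 4 here, matches no label by number.

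Positions are on the GRCm38 build. Class I genes lie mostly on chromosome 17, inside the mouse H2 complex. H2-K1 (ENSMUSG00000061232) spans chr17:33996017-34000347 on the minus strand and H2-D1 (ENSMUSG00000073411) chr17:35262730-35267499 on the plus strand. Tapbp (ENSMUSG00000024308) spans chr17:33915899-33929292. A tight cluster follows on the same chromosome, with Psmb9 (ENSMUSG00000096727) at chr17:34181987-34187764 on the minus strand, Tap1 (ENSMUSG00000037321) at chr17:34187553-34197225, Psmb8 (ENSMUSG00000024338) at chr17:34197721-34201454 and Tap2 (ENSMUSG00000024339) at chr17:34203527-34216321, these last 3 on the plus strand, as is Tapbp. B2m (ENSMUSG00000060802) spans chr2:122147686-122153083 on the plus strand. Psmb10 (ENSMUSG00000031897) spans chr8:105935735-105938444 on the minus strand and Nlrc5 (ENSMUSG00000074151) chr8:94434356-94527272 on the plus strand. Tap1 and Psmb9 run away from each other and share 212 exonic bases on opposite strands, so reads there cannot be told apart if the counting ignored strand. Tapbp shares 149 exonic bases with Zbtb22 on the same strand, and Nlrc5 shares 78 with 9330175E14Rik on the opposite strand.

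Some promoters of the members share short elements. RefSeq windows on GRCm38.p6, from the C57BL/6J reference and not from CT26, were found for 8 of the 10 members. The 250 bases before the start site are given here for the heavy and light chain genes, which carry a common arrangement, and for Tap1 and Psmb8, which do not. Capitals mark the motifs searched: GGG and TTCCC with 2 bases between (a kappaB site), GAAA and GAAA with 2 bases between and the shorter form GAANNGAAA (interferon-stimulated response elements), TTCNNNGAA (a gamma-activated site), TGACG (the core of the X2 element) and CCAAT (the core of the Y box). Both strands were searched. H2-K1 has 2 start sites 14 bases apart, and the window shown lies at chr17:34000334-34000583 on the minus strand. The other windows, all on the plus strand, lie at chr17:35262844-35263093 for H2-D1, chr2:122147437-122147686 for B2m, chr17:34187306-34187555 for Tap1 and chr17:34197945-34198194 for Psmb8.
H2-K1: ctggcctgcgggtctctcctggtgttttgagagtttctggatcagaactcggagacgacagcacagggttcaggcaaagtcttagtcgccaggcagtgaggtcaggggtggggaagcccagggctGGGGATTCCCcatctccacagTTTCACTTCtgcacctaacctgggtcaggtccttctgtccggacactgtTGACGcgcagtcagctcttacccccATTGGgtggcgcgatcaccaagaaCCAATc
H2-D1: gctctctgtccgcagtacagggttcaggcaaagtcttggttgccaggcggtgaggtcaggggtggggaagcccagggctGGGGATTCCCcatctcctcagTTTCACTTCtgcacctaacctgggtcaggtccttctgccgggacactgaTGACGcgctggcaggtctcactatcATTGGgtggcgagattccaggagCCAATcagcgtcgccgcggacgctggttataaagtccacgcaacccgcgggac
B2m: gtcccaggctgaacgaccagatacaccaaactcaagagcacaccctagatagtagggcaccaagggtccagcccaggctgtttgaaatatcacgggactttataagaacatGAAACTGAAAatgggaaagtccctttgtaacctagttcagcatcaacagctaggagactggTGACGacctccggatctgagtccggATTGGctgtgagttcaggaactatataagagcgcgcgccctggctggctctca
Tap1: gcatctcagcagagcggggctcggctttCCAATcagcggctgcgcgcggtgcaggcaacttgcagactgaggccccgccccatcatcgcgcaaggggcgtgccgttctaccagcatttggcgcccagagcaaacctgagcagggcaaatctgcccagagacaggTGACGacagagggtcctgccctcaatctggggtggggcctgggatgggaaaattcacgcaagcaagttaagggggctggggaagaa
Psmb8: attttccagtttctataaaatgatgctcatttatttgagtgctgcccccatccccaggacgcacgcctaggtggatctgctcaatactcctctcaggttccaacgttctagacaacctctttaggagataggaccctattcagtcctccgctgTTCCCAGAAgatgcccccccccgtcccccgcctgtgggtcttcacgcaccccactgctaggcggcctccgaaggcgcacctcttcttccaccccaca

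H2-K1, H2-D1 and B2m each hold TGACG followed by ATTGG, the reverse of CCAAT, with exactly 20 bases between. That spacing occurs in 0.0913% of all 32851 windows of this length, which are 30 windows of 26 genes, 3 of them members. It was picked after the sequences had been read. Any spacing from 15 to 30 bases occurs in 0.49% of windows. The H2-K1 and H2-D1 windows also share the kappaB letters, found in 1.53% of windows, and the shorter response element, found in 6.31%. The B2m window holds the longer response element, which 2.98% of windows hold, and the Psmb8 window the gamma-activated site, which 7.02% hold. TGACG is in the windows of 5 of 8 members against 17.8% of all windows, and CCAAT in 6 of 8 against 33.8%, with the Tap1 and Psmb9 windows sharing 225 bases. The Psmb10 window held none of the motifs searched. A match of letters is a description of the sequence and not a measured binding site.

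All 10 genes were expressed in cultured CT26 cells, at levels far apart. Per kilobase of the main transcript, the scaled CPM of untreated cells was highest for B2m at 762.2, followed by H2-D1 at 260.0, H2-K1 at 140.6 and Tapbp at 74.5. Tap2 followed at 18.8, then Psmb10 at 10.1 and Tap1 at 6.84, whose ranges over the libraries overlapped. Nlrc5 at 2.47 and Psmb9 at 1.48 overlapped as well, and Psmb8 was lowest at 0.721. Psmb8 and Psmb9 were the lowest of the set in cells, while the third immunoproteasome subunit gene, Psmb10, stood in its middle. In untreated tumors the top of the order was the same, B2m at 2269 per kilobase, H2-D1 at 994.2, H2-K1 at 693.0 and Tapbp at 127.1. The lower part was not, with Psmb8 at 75.1, Psmb10 at 74.1, Psmb9 at 61.3, Tap1 at 56.1, Tap2 at 40.2 and Nlrc5 last at 10.5. Of these, Psmb8 overlapped with Psmb10 and with Psmb9, and Psmb9 with Tap1. This lower order in tumors depended on the length used. Per kilobase of all exons, Psmb10 was at 57.0, Tap2 at 36.6, Psmb8 at 36.2, Tap1 at 30.2, Psmb9 at 22.7 and Nlrc5 at 9.33. Tap2 and Psmb8 overlapped there. In untreated cells the order was the same with either length.

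**Figure D1:**
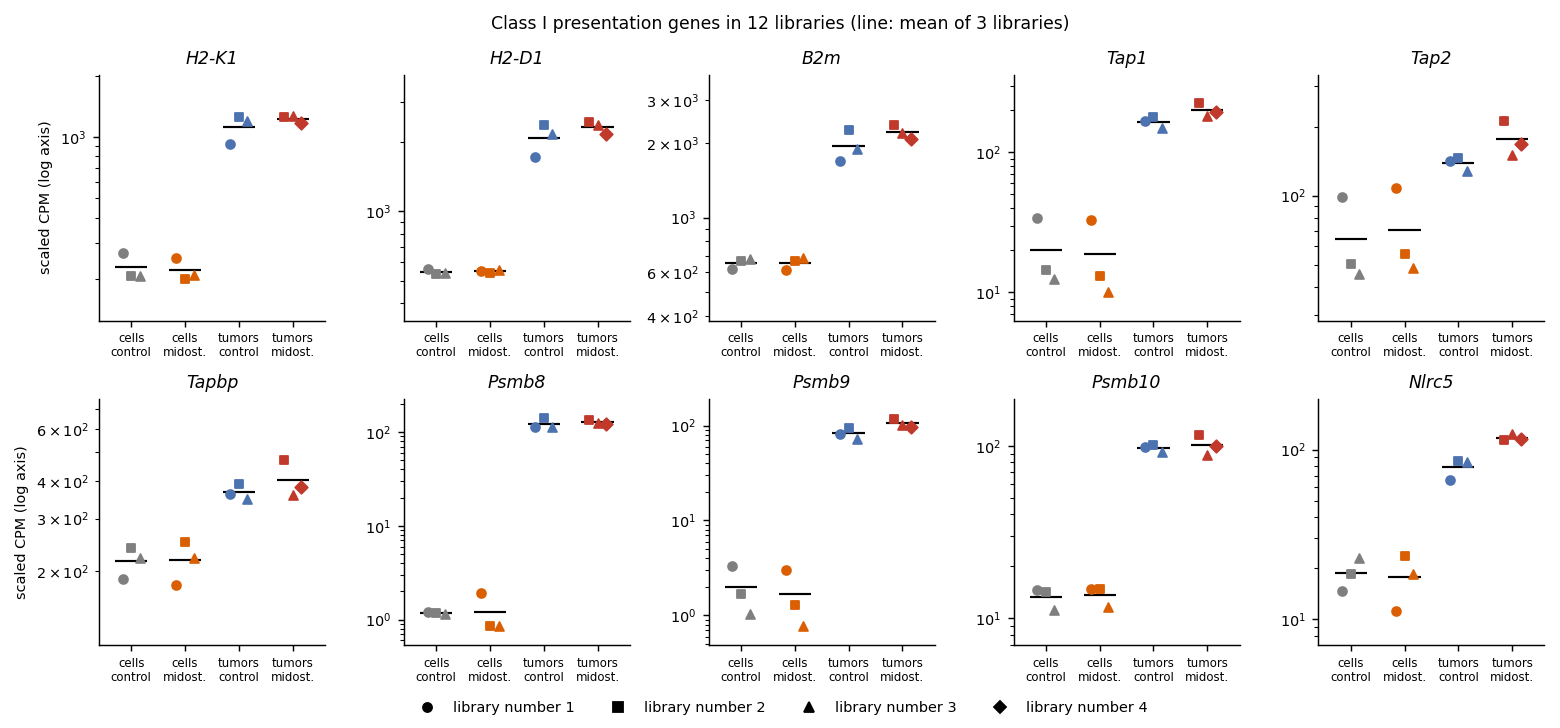
Scaled CPM of each class I presentation gene in each of the 12 libraries, on a log axis, with points for libraries and a bar for each group mean. All untreated tumor points lie above all untreated cell points for the 10 genes, with the widest gap for Psmb8 (1.14 to 1.21 in cells and 113 to 140 in tumors).

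In untreated tumors against untreated cells, all 10 genes were higher, from 1.71-fold for Tapbp to 104-fold for Psmb8. With edgeR's quasi-likelihood test, 10 of 10 passed an adjusted p of 0.05, where 24.5% of the 16965 genes tested were called higher. The 3 tumors lay above the 3 cell libraries without overlap for 10 of 10 members, against 30% of genes. The median log2 fold change of the members was 2.19, against 0.04 over all genes. Culture and tumor differ in cell makeup and growth conditions, and in a bulk sample fewer cells of a type and less RNA per cell cannot be told apart.

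The heavy chains carry the peptide groove. H2-K1 was at 269, 206 and 207 scaled CPM in the untreated cell libraries 1, 2 and 3, and at 919, 1247 and 1201 in the untreated tumors. H2-D1 was at 562, 536 and 541 in those cells and at 1731, 2373 and 2165 in the tumors. Control tumor 1 was the lowest tumor for both genes, and still far above any cell library. The log2 fold change was 2.303 ± 0.155 (SE) for H2-K1 and 1.94 ± 0.11 for H2-D1 (edgeR adjusted p = 5.57e-06 and 3.37e-06). CT26 comes from BALB/c mice, whose H2 alleles differ from those of the reference strain, and reads of H2-K1 and H2-D1 can be shared with other heavy chain genes, so the split between these genes is uncertain. Over the 31 genes of that family, H2-K1 and H2-D1 together took 69.6% to 70.3% of counts in cells and 67.0% to 69.0% in tumors.

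B2m, the light chain that stabilizes every class I heavy chain, was at 617, 667 and 682 scaled CPM in the untreated cells. In the untreated tumors it was at 1699, 2255 and 1900, higher by a log2 fold change of 1.58 ± 0.11 (edgeR adjusted p = 7.52e-06). Its rise was 2.98-fold, below those of H2-D1 (3.83-fold) and H2-K1 (4.93-fold).

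Tap1 and Tap2 form the transporter, and Tapbp encodes tapasin. Tap1 was at 33.8, 14.4 and 12.4 scaled CPM in untreated cells 1, 2 and 3, and at 168, 180 and 149 in untreated tumors, a log2 fold change of 3.04 ± 0.48 (edgeR adjusted p = 0.000604). Tap2 was at 98.8, 50.4 and 45.5 in cells and 142, 146 and 128 in tumors, a log2 fold change of 1.09 ± 0.34 (edgeR adjusted p = 0.0239). For both genes cell library 1 was the highest of the cells, and for Tap2 it lay nearer to the lowest tumor than to the other cell libraries. Tapbp, at 188, 238 and 221 in cells and 363, 393 and 349 in tumors, had the smallest rise, 0.77 ± 0.15 (edgeR adjusted p = 0.00174). The Tap2 call was lost when cell control 2, cell control 3, tumor control 1 or tumor control 2 was left out, with adjusted p of 0.0888, 0.0895, 0.0578 and 0.0606.

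Psmb8, Psmb9 and Psmb10 encode the catalytic subunits that replace Psmb5, Psmb6 and Psmb7 in the immunoproteasome. Psmb8 was at 1.21, 1.17 and 1.14 scaled CPM in untreated cells, which rests on 48, 43 and 40 counts, and at 114, 140 and 113 in untreated tumors. Psmb9 was at 3.29, 1.69 and 1.02 in cells and at 81.6, 94.4 and 72.8 in tumors. Psmb10 was at 14.6, 14.1 and 11.2 in cells and at 98.0, 102 and 91.9 in tumors. No tumor came near any cell library for these genes, and Psmb10, the subunit most expressed in cells, rose least. The log2 fold changes were 6.70 ± 0.29, 5.37 ± 0.50 and 2.87 ± 0.15 (edgeR adjusted p = 1.01e-06, 3.16e-05 and 2.63e-06).

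Of the 3 constitutive counterparts, 1 was called higher in untreated tumors, beside 24.5% of all genes tested. It was Psmb6 (log2 fold change 0.43, edgeR adjusted p = 0.0248). That call was lost with total counts and without cell control 2, cell control 3 or tumor control 1 (edgeR adjusted p up to 0.0969), while without cell control 1 Psmb7 was called as well (edgeR adjusted p = 0.0105). The per-kilobase ratio of Psmb8 to Psmb5 lay between 0.00623 and 0.0119 in the 6 cell libraries and between 0.842 and 1.17 in the 6 tumors. In untreated samples this ratio was 113-fold higher in tumors, that of Psmb9 to Psmb6 34.0-fold and that of Psmb10 to Psmb7 5.68-fold. None of the 3 ratios overlapped between the groups. An exact two-sided permutation test of 3 against 3 gave p = 0.1 for each, the smallest it allows, and 0.3 after Benjamini-Hochberg adjustment over the 9 ratio tests.

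**Figure D2:**
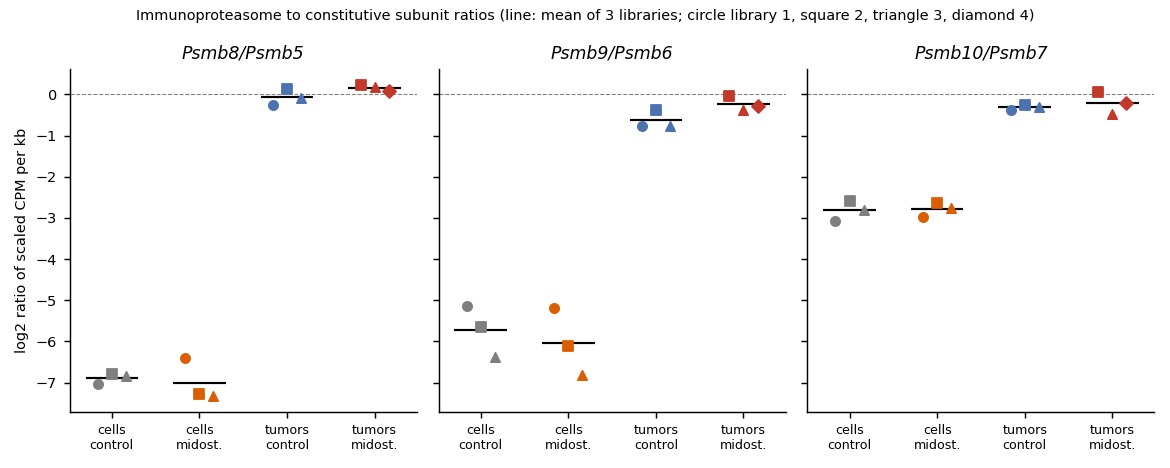
Ratio of each immunoproteasome subunit to its constitutive counterpart per kilobase, in each library, on a log axis. Psmb8 to Psmb5 lies at 0.00623 to 0.0119 in cells and 0.842 to 1.17 in tumors, and midostaurin and control points overlap in cells.

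Nlrc5, the transactivator of class I genes, was at 14.6, 18.5 and 23.1 scaled CPM in untreated cells and at 66.6, 85.9 and 85.1 in untreated tumors. The tumors did not overlap with the cells, and control tumor 1 was the lowest of them, as for the heavy chains. The log2 fold change was 2.08 ± 0.25 (edgeR adjusted p = 0.000124).

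Markers of leukocytes and of other cell types moved with this comparison. The 6 pan-leukocyte genes summed to 1.85 to 15.1 scaled CPM in untreated cells, where 2 to 4 were at 0 and Ptprc and Laptm5 were at 0 in every library, and to 480.2 to 657.7 in untreated tumors, with none at 0. The 7 macrophage genes summed to 4.78 to 25.5 in cells, mostly Cd68, with 4 or 5 at 0, and to 866.7 to 1230 in tumors. The 5 endothelial genes summed to 0.101 to 0.625 in untreated cells and to 54.1 to 109.75 in untreated tumors. The 6 fibroblast genes summed to 825.7 to 1542 and to 1721 to 4467. The epithelial sum was lower in tumors, at 24.4 to 27.8 in cells and 5.50 to 17.1 in tumors. Leukocytes express class I genes strongly, and the part of any of these cell types in the rise of the members was not tested.

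Among 10 partners in peptide supply and loading, 5 were called higher in untreated tumors and 1 lower, where 19.7% of all genes tested were called lower. Psme1 and Psme2, the subunits of the proteasome activator PA28, had log2 fold changes of 1.36 and 1.49, the trimming peptidase Erap1 1.57, the tapasin relative Tapbpl 1.17 and the assembly factor Pomp 0.26. The one called lower was the peptidase Tpp2 at -0.45. Of 15 transcription regulators of class I, 3 were called higher and 3 lower, against the 24.5% and 19.7% of all genes. Those higher were Irf1 (1.30), Irf2 (0.76) and Irf8 (2.43), and those lower the regulatory factor X subunit Rfxank (-0.999), Nfya (-0.29) and Rela (-0.32). Of 6 genes of the interferon gamma axis, 4 were called higher, with Ifngr1 at 0.87, Ifngr2 at 0.84 and the feedback inhibitor Socs1 at 1.39. The fourth, Ifng itself, was at 0 in all 6 cell libraries and at 0.482 to 0.702 scaled CPM in untreated tumors. Those tumor values rest on only 19, 26 and 27 counts. Of 3 Polycomb repressor genes, Suz12 was called lower (-0.40). Leaving out 1 library at a time, 4 or 5 partners were called higher, 3 to 5 regulators higher and 2 to 4 lower, and 0 or 1 Polycomb gene higher, with the 5 regulators without cell control 1.

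In cultured cells, no member passed the test of midostaurin against DMSO. The log2 fold changes ran from -0.25 for Psmb9 to 0.13 for Tap2, with 6 above 0, and the groups overlapped for 10 of 10 members, where 1.31% of genes were higher and 1.15% lower without overlap. No gene of 14538 passed edgeR's test, 0% called, and every member had an adjusted p of 0.9999. At an unadjusted p under 0.05, 75 genes passed (0.516%), none of them a member, and DESeq2 called 2 genes (0.0138%), again no member.

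The intervals set how large a change could have gone unseen. B2m was at 617, 667 and 682 scaled CPM with DMSO and at 612, 670 and 686 with midostaurin, and its 95% interval ran from -0.20 to 0.21 log2. H2-D1, at 554, 541 and 559 with midostaurin, had an interval of -0.15 to 0.18, and H2-K1, at 255, 199 and 210, one of -0.41 to 0.33. Library 1 was the highest H2-K1 library under both treatments and the lowest B2m library. For Tap1 the interval was wide, -1.53 to 1.31, since midostaurin library 1 was at 32.9 and libraries 2 and 3 at 13.1 and 10.0. Psmb9, at 2.99, 1.28 and 0.774 with midostaurin, had an interval of -1.79 to 1.30, and Psmb8, resting on 74, 31 and 31 counts, one of -0.90 to 0.97. Nlrc5 was at 11.2, 23.6 and 18.4 with midostaurin, inside and around the DMSO range, with an interval of -0.83 to 0.67.

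Same-numbered control and midostaurin cell libraries resembled each other, with deviations correlated at 0.847 to 0.961, so the fit was repeated with the number as a replicate block. It called 8 genes (0.055%) and no member, but narrowed the intervals. Of the 10 members, 2 were higher with midostaurin in 3 of 3 pairs, Tap2 and Psmb10, and 2 lower, Tap1 and Psmb9. The share of all genes higher or lower in 3 of 3 pairs was not computed, so these counts describe the pairs only. Tap2, at 108, 55.8 and 48.4 with midostaurin, had the smallest p of these genes in the blocked edgeR fit. Its blocked log2 fold change was 0.12 ± 0.04 (unadjusted p = 0.00663 in the edgeR fit, adjusted p = 0.992). Tap1 had a blocked log2 fold change of -0.15 with an interval of -0.31 to 0.02, Psmb9 -0.29 (-0.82 to 0.24) and Psmb10 0.05 (-0.13 to 0.23). For H2-K1 the blocked interval was -0.10 to 0.02, for H2-D1 -0.03 to 0.05 and for B2m -0.03 to 0.03.

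The cell libraries numbered 1 differed from numbers 2 and 3 for many members, as for many of all genes. Tap1 in library 1 was 2.53 times the mean of libraries 2 and 3 with DMSO and 2.84 times with midostaurin. Psmb9 was 2.43 and 2.91 times that mean, and Tap2 2.06 and 2.08 times. H2-K1 was 1.30 and 1.25 times the mean, while Nlrc5 was 0.701 and 0.535 times and Tapbp 0.820 and 0.764 times. H2-D1 (1.04 and 1.01 times), B2m (0.914 and 0.902 times) and Psmb10 (1.15 and 1.12 times) lay nearer to it. Psmb8 was 1.05 times the mean with DMSO and 2.24 times with midostaurin. Both libraries numbered 1 lay above the other 4 without overlap for 5 of 10 members, against 33.1% of genes, and below for 3 of 10, against 32%. Irf9 was 2.53 and 2.38 times that of the others, Irf1 only 1.10 and 1.07 times. The pan-leukocyte sum, which was mostly Cd53 in libraries 2 and 3, was 1.85 and 1.55 scaled CPM in the libraries numbered 1. What sets these libraries apart is not given in the sources used here.

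In tumors, all 10 genes had a log2 fold change above 0 with midostaurin, from 0.06 for Psmb8 to 0.58 for Nlrc5, and none passed the test. The edgeR fit called 7 of 16094 genes, 0.0435%, and 0 of 10 members. The members' median was 0.18 against -0.01 over all genes. At an unadjusted p under 0.05, 4 of 10 members were higher, against 10.5% of genes, and the same 4 had no overlap between the groups, against 13.2% of genes. DESeq2 called 1 member, Nlrc5, and 9.84% of the 14495 genes to which it gave an adjusted p, with 5.95% of the 14495 called higher.

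**Figure D3:**
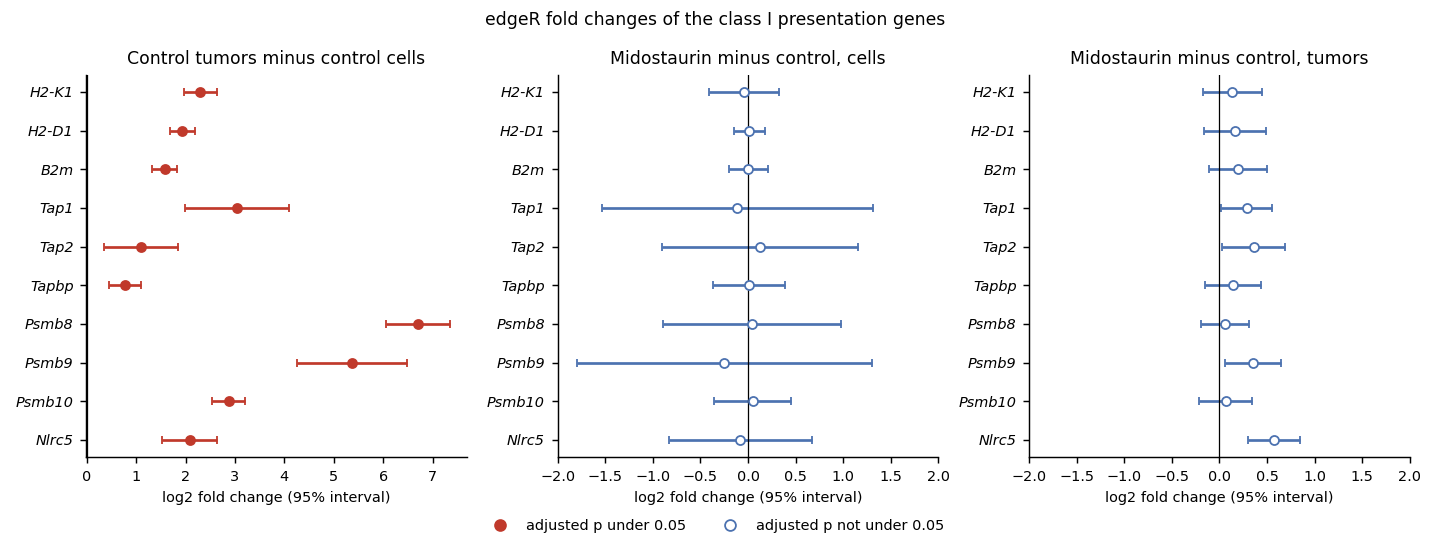
Log2 fold change of each member in 3 comparisons, with 95% intervals from the edgeR fits. In tumors the midostaurin values run from 0.06 to 0.58 and most intervals cross 0, while those of untreated tumors against cells run from 0.77 to 6.70.

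Nlrc5 had the largest difference of the members. It was at 66.6, 85.9 and 85.1 scaled CPM in control tumors and at 114, 124 and 116 in midostaurin tumors. Every midostaurin tumor was above every control tumor. Its fold was 1.49 and its log2 fold change 0.58 ± 0.12, with a 95% interval of 0.30 to 0.85 (edgeR adjusted p = 0.0907). With DESeq2 the adjusted p was 0.000588, with limma-voom 0.0982, and with each tumor left out in turn the edgeR log2 fold change was 0.47 to 0.64 and the adjusted p 0.166 to 0.244.

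Tap1, Tap2 and Psmb9 were the other 3 without overlap. Tap1 was at 168, 180 and 149 scaled CPM in control tumors and 225, 182 and 195 in midostaurin tumors 2, 3 and 4. Tap2 was at 142, 146 and 128 against 211, 150 and 169. Psmb9 was at 81.6, 94.4 and 72.8 against 118, 101 and 97.2. Midostaurin tumor 2 was the highest for each of them, and midostaurin tumor 3 exceeded the highest control only slightly for Tap1 and Tap2. Their log2 fold changes were 0.28 ± 0.11, 0.36 ± 0.14 and 0.35 ± 0.12 (edgeR adjusted p = 0.233, 0.218 and 0.191).

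The other 6 members overlapped between the tumor groups. H2-K1 was at 1251, 1266 and 1171 with midostaurin, H2-D1 at 2458, 2365 and 2172 and B2m at 2371, 2208 and 2089. For these chains control tumor 1 was the lowest of the 6 tumors, and control tumor 2 lay within the midostaurin range. Their log2 fold changes were 0.14 (95% interval -0.18 to 0.45), 0.16 (-0.16 to 0.49) and 0.19 (-0.11 to 0.50). Tapbp, at 472, 359 and 383, had one of 0.14 (-0.15 to 0.43). Psmb8, at 135, 124 and 122, and Psmb10, at 116, 87.8 and 99.6, had the smallest, 0.06 (-0.20 to 0.31) and 0.07 (-0.21 to 0.34). The ratios of the immunoproteasome subunits to their counterparts had differences of 0.23, 0.41 and 0.10 log2 between the tumor groups (exact two-sided permutation p = 0.2, 0.2 and 0.7, adjusted 0.36, 0.36 and 0.9 over 9 tests).

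**Figure D4:**
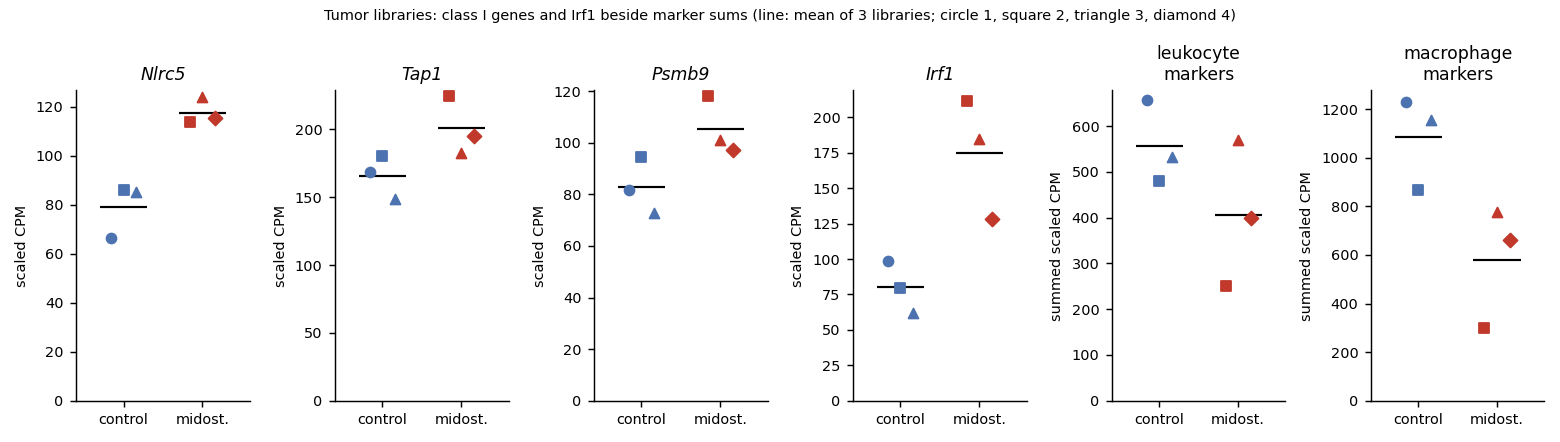
Scaled CPM in each control and midostaurin tumor for Nlrc5, Tap1, Psmb9, Irf1 and the summed leukocyte and macrophage markers, with 1 point per tumor and a line at the group mean. Nlrc5 is at 66.6 to 85.9 in control tumors and 114 to 124 in midostaurin tumors, and the macrophage sum at 866.7 to 1230 and 299.6 to 776.5.

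The macrophage marker sum differed between the tumor groups, while the other marker sums given here overlapped. The 7 macrophage genes summed to 866.7 to 1230 scaled CPM in control tumors and to 299.6 to 776.5 in midostaurin tumors, lower without overlap, with none at 0. All 7 had a log2 fold change below 0, but edgeR called 0 of them, beside 0.0435% of all genes tested. Taken singly, Cd68 (76.6 to 119 against 70.1 to 80.2) and Adgre1 (35.8 to 55.0 against 14.7 to 45.2) overlapped between the groups. The share of all genes lower without overlap in tumors is not given here. The pan-leukocyte sum was 480.2 to 657.7 and 251.3 to 568.8, the T cell sum 21.7 to 34.2 and 18.0 to 41.2, and the NK sum 50.3 to 59.7 and 31.0 to 78.6. The fibroblast sum was 1721 to 4467 and 1574 to 2652, and the endothelial sum 54.1 to 109.75 and 48.9 to 91.3. Control tumor 1 was the highest tumor for both of these sums. The neutrophil sum reached 636.7 in midostaurin tumor 3 alone. It was 28.5 and 17.2 in midostaurin tumors 2 and 4, and 12.9 to 26.1 in control tumors. The part of these cell types in the members' values was not tested.

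Among 37 other genes of the pathway, edgeR called none in tumors with midostaurin, and 5 had an unadjusted p under 0.05. Such a p was common, since Tap1, at an unadjusted edgeR p of 0.0417, ranked 2873 of the 16094 genes tested. The 5 of 37 thus do not exceed the share over all genes. DESeq2 called 3 of the 37, Irf1, Irf8 and Jak2 (adjusted p = 6.18e-05, 0.0111 and 0.0406), beside the 9.84% of all genes that DESeq2 called. Irf1, an interferon-induced activator of class I genes, was at 98.8, 79.3 and 61.8 scaled CPM in control tumors and at 212, 185 and 128 in midostaurin tumors. The groups did not overlap, and the log2 fold change was 1.14 ± 0.23 (edgeR adjusted p = 0.0907). Irf8, a factor of myeloid cells, was lower without overlap, at 51.9, 40.9 and 43.9 against 31.7, 31.0 and 35.2, with a log2 fold change of -0.48 ± 0.11 (edgeR adjusted p = 0.108). Relb, a subunit of NF-kappaB, had a log2 fold change of 0.55 (edgeR adjusted p = 0.238). The 15 regulators had a median of 0.08, with 10 above 0.

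In the interferon gamma axis, 6 of 6 genes were above 0, with a median of 0.26, against -0.01 over all genes. Midostaurin tumor 3 was the highest of the 6 tumors for all of them but Socs1, where midostaurin tumor 2 was. Ifngr1 was at 43.5, 70.4 and 44.5 in midostaurin tumors 2, 3 and 4, against 44.7 to 56.2 in control tumors. Jak1 was at 103, 130 and 103, against 101 to 111, and Ifngr2 at 42.35, 68.2 and 49.8, against 43.9 to 48.4. Jak2, the kinase of the receptor, was at 56.9, 55.3 and 48.5 in control tumors and at 67.1, 119 and 67.2 with midostaurin, where tumor 3 was far above the other two. Its log2 fold change was 0.66 ± 0.23 (edgeR adjusted p = 0.183). Ifngr2 had 0.23 and Socs1 0.29 (edgeR adjusted p = 0.492 and 0.538). Ifng was at 0.482, 0.702 and 0.624 in control tumors and at 0.661, 0.900 and 0.680 with midostaurin. These values rest on 19, 26 and 27 counts and on 26, 29 and 32 counts. Of the 10 partners, 4 were above 0, and the named ones, Lnpep, Canx and Tapbpl, had adjusted p above 0.3 in edgeR's test. The 3 constitutive subunits were all below 0, Psmb5 the lowest at -0.17 (edgeR adjusted p = 0.264). Of the Polycomb genes, Ezh2 had 0.24 ± 0.08 (edgeR adjusted p = 0.193), with Eed and Suz12 nearer 0.

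The response to midostaurin was not shown to differ between tumors and cells for any member. In 1 fit over all 12 libraries, the difference of the log2 fold changes (tumors minus cells) was called for 1 of 16965 genes, 0.00589%, and 0 of 10 members. Nlrc5 had the largest difference, 0.65 ± 0.34 with a 95% interval of -0.11 to 1.41 (edgeR adjusted p = 0.849), followed by Psmb9 at 0.59 and Tap1 at 0.39. Dose, time and exposure also differed between culture and mice. With the replicate block in cells alone, a fit added after seeing the data, 16 genes were called, 0.0943%, and no member, with edgeR adjusted p of 0.192 for Nlrc5, 0.193 for Psmb9 and 0.217 for Tap1. A block that also ties tumors by number, which their values do not back, called 178 genes, 1.05%, and no member, the lowest edgeR adjusted p being 0.0823 for Psmb9.

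The genes whose profile over the 12 libraries came nearest to the mean profile of the members were H2-T23, H2-Q4, H2-Q7, Arsj and H2-Q6. Likeness was the root mean square distance of centred log2(CPM + 0.5) values, over 10867 genes averaging 5 CPM or more, and was 0.161, 0.190, 0.205, 0.225 and 0.230. Among the members, Psmb10 lay nearest to their mean profile at 0.122 and Psmb8 farthest at 1.70. H2-T23, which encodes the nonclassical molecule Qa-1, averaged 14.4 scaled CPM in untreated cells, 105 in untreated tumors and 130 in midostaurin tumors. The distances are dominated by the gap between cells and tumors, and over the 6 tumors alone 0 of these 5 genes were among the nearest 5. The 4 H2 genes named here can share reads with H2-K1 and H2-D1.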

How the data were processed

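RNA was sequenced from 12 directional poly(A) libraries. Reads were checked with FastQC 0.11.2 and handled with Bowtie2 2.3.4 and RSEM on the mm10 genome, per the submitters' processing notes. The authors deposited whole-number counts per gene, 1 table for cells and 1 for tumors. The annotation, the strand setting and any rounding of RSEM estimates are not given in the sources used here. RSEM divides reads among similar genes by an estimate, which touches the heavy chain genes most.

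Symbols came from a table that named 99.7% of identifiers, and positions from GENCODE M21. edgeR 4.0.16 in R 4.3.3 was run with filterByExpr, TMM scaling and the quasi-likelihood F-test, with Benjamini-Hochberg adjustment over all genes tested and a threshold of 0.05. Cells and tumors were fitted apart. Untreated tumors against cells and the difference of the responses came from 1 fit over 12 libraries. Scaled CPM used TMM factors over all 12 libraries, and levels per kilobase the length of the main transcript unless all exons are named. The fits were tested on simulated counts with the same dispersion for every gene and changes much larger than the midostaurin differences here. The simulation held no outlying library and no pairing, so it does not show how the fits fare with those. DESeq2 1.42.0, limma-voom (limma 3.58.1), other scalings, no filter, left-out libraries, summed heavy chain genes and a replicate block were alternatives.

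The members and gene lists were chosen with earlier results of these data known. All 10 members are named, with up to 3 genes per list by the smallest p in the tumor comparison. List genes called in untreated tumors, and Irf9, were named after their values were seen. One further listed regulator is not reported here.

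Cell libraries were taken as paired by number, on the data alone since no label says so: same-numbered pairs had the highest correlations of deviations (0.961, 0.879 and 0.847 for numbers 1, 2 and 3, against at most 0.659 otherwise). Tumors share only numbers 2 and 3, at 0.146 and -0.184, and were not treated as paired.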

Additional observations from a re-analysis of the deposited data

How the results depend on the processing

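The 10 calls in untreated tumors held under the other scalings, DESeq2, limma-voom and no filter, and without both cell libraries numbered 1, an alternative chosen after seeing the data. With 1 library left out, 9 or 10 were called. In tumors with midostaurin, DESeq2 called 1 member against 0 with edgeR, and 1426 genes against 7. limma-voom called 16 genes there, and 0 were called without the filter, with the replicate block or, for 4 of the 6 libraries, with 1 left out. In the difference, DESeq2 called 99 genes against 1. Counts in cells stayed at 8 genes or fewer.

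Small log2 fold changes changed sign. In cells, H2-D1 moved to -0.0036 with H2-K1 and H2-D1 summed and to -0.0056 with the heavy chain family summed, B2m to -0.0040 with total counts and -0.0006 without the filter, and Psmb8 to -0.0622 with limma-voom. Without both libraries numbered 1, Psmb8 in cells was -0.4362 and Nlrc5 0.0129. With the replicate block, Psmb8 in cells was -0.0395 and Psmb6 in tumors 0.0348. With total counts, Eed in tumors was -0.0137, and the differences of Psmb8 and Psmb10 were -0.0172 and -0.0141.
Leaving out 1 library at a time, the log2 fold changes in cells with midostaurin ran from -0.0406 to 0.0483 for B2m, -0.0009 to 0.0331 for H2-D1, -0.1565 to 0.0956 for H2-K1, -0.3397 to 0.1635 for Nlrc5, -0.0601 to 0.1527 for Psmb10, -0.4616 to 0.2366 for Psmb8, -0.9590 to 0.3143 for Psmb9, -0.8042 to 0.4830 for Tap1, -0.3173 to 0.5640 for Tap2 and -0.1059 to 0.1259 for Tapbp. Leaving out 1 library at a time, the log2 fold changes in tumors with midostaurin ran from -0.0409 to 0.0955 for Eed, -0.0564 to 0.1693 for Psmb10, -0.0883 to 0.0158 for Psmb6, -0.0843 to 0.0027 for Psmb7, -0.0011 to 0.1707 for Psmb8 and -0.0356 to 0.4660 for Socs1. Leaving out 1 library at a time, the log2 fold changes in untreated tumors ran from -0.0499 to 0.1755 for Relb. Leaving out 1 library at a time, the log2 fold changes in the difference ran from -0.1012 to 0.1193 for Psmb10, -0.1919 to 0.5116 for Psmb8, -0.2083 to 1.0804 for Tap1 and -0.2136 to 0.6680 for Tap2. The log2 differences of the ratios ran from -0.0992 to 0.1463 for Psmb10 over Psmb7 in cells, -0.0335 to 0.2354 for Psmb10 over Psmb7 in tumors, -0.4152 to 0.0524 for Psmb8 over Psmb5 in cells, -0.7402 to 0.0672 for Psmb9 over Psmb6 in cells.

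Depth limits Psmb8 and Psmb9 in cells most, and 3 libraries a group limit every interval.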
